A study of Homo sapiens and Mus musculus with 8 samples.

Results

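The nuclear genes for the subunits of the mitochondrial respiratory chain and of ATP synthase were followed across 8 poly(A) RNA-seq libraries of 2 human colorectal cancer cell lines. Members were the protein-coding genes whose symbols begin NDUFA, NDUFB, NDUFC, NDUFS, NDUFV, UQCR, COX4I, COX5, COX6, COX7, COX8 or ATP5, together with SDHA, SDHB, SDHC, SDHD and CYC1. Symbols alone decided membership, and the NDUFAF assembly factors and all pseudogenes were left out. The rule found 91 of the 60483 genes in the deposited table: 38 of complex I, 4 of complex II, 10 of complex III, 19 of complex IV and 20 of complex V. NDUFA4 and NDUFA4L2 keep complex I names but were placed in complex IV, where the NDUFA4 protein is now known to sit. Of the 91 members, 82 reached 1 CPM, a read count scaled to library size, in at least 2 libraries and were tested, beside 16070 genes in all. That minimum used library totals alone.

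Each of the 8 groups was 1 library. KM12, which carries GNAS R201H, was profiled as a GNAS knockout and as the parental line, and LS174T with GNAS R201H was profiled as Dox (+) and Dox (-), each as cells in culture and as a cell line-derived xenograft (CDX) grown in a mouse. Both LS174T states carry the R201H label, and the labels give neither what doxycycline switches on, nor how the knockout was made, nor whether a line is 1 clone, nor how many animals a xenograft library holds. GNAS encodes the stimulatory G protein alpha subunit, and the R201H change is known to hold it active. The study's stated subject is the profile of GNAS mutant lines in both settings.

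GNAS was lower in the knockout than in the parental line in both KM12 pairs, and higher in Dox (+) than in Dox (-) in both LS174T pairs, where the labels do not say which to expect. It had 903 CPM in the KM12 knockout xenograft and 1390 CPM in the KM12 parental xenograft, and 298 CPM in the knockout culture against 1119 CPM in the parental culture. The LS174T values were 691 CPM in the Dox (+) xenograft and 586 CPM in the Dox (-) xenograft, and 1746 CPM in the Dox (+) culture against 691 CPM in the Dox (-) culture. Transcripts of the targeted gene thus remained in both knockout libraries, and counts per gene cannot show whether they carry the edit.

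Library totals ran from 15924846 to 23124811 counts in xenografts and from 31868711 to 37735085 counts in cultures, so counting error is larger in the xenografts. Member genes took 0.895% to 1.24% of each library. The xenograft libraries name the mouse as organism in their labels, but the table holds 0 mouse gene identifiers, and how reads of the host were handled is not given in the sources used here. All 13 colon epithelium markers reached 1 CPM in every library, but their levels differed. Between the KM12 xenografts their median log2 difference, parental minus knockout, was -0.93. LGALS4 had 78.3 CPM in the parental and 775 CPM in the knockout xenograft, and CDH17 48.6 CPM and 331 CPM. Only EPCAM (572 against 518 CPM) and KRT18 (1887.5 against 1470 CPM) were higher in the parental xenograft. Summed endothelial markers stayed at or under 1.83 CPM, with KDR at 0 counts throughout. CDH5 had 11 to 21 counts in xenografts and 0 to 1 in cultures, and TEK 4 to 6 against 0 to 2. PECAM1 was instead highest in the LS174T Dox (+) culture, at 17 counts. TYROBP, ADIPOQ and MYL2 were at 0 counts in all 8 libraries, but other genes of their lists were not. CD74 reached 19.4 CPM in the LS174T Dox (+) xenograft, PLIN1 4.27 CPM in the Dox (+) culture and MYH4 33.8 CPM in the Dox (-) culture. The 9 leukocyte markers summed to 247 to 787 CPM in KM12 and 15.5 to 53.3 CPM in LS174T libraries, with LYZ the bulk of it at 766 CPM in the KM12 knockout xenograft. Adipocyte markers summed to at most 5.17 CPM and muscle markers to 7.40 to 41.0 CPM. The part of these markers in the results was not tested. Fibroblast markers summed to 267 CPM in the KM12 parental xenograft, of which COL3A1 gave 220 CPM, and to at most 15.3 CPM elsewhere. COL1A1 (29.2 CPM) and LUM (10.0 CPM) were also highest in that library. So was COL1A2 at 3.73 CPM, close to its 3.45 CPM in the KM12 knockout xenograft. The rest of the list did not follow there, with PDGFRA and FAP at 0 counts and THY1 at 1 count. PDGFRB had 0.459 CPM there, against 1.26 CPM in the KM12 knockout xenograft. In bulk RNA, fewer cells of a type and less RNA per cell cannot be told apart. Nothing in the library description marks the strand, so reads of overlapping genes on opposite strands cannot be separated, and genes with near-identical copies such as UQCRH and UQCRHL, or SDHA and its pseudogenes, are uncertain.

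The respiratory chain sits in the inner mitochondrial membrane. Complex I takes electrons from NADH and complex II from succinate, complex III passes them on to cytochrome c, complex IV hands them to oxygen, and complex V uses the resulting proton gradient to make ATP. Most subunits are encoded in the nucleus and join a small set made inside the mitochondrion, and the factors NRF1, GABP (an ETS family factor) and YY1 are known to act at many of the nuclear promoters.

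The promoter windows printed here run from 250 bases before to 50 bases after the annotated start in RefSeq (GRCh38.p14), and they are shown for 4 members on which the results turn. NDUFA4L2 had the highest xenograft-over-culture difference of the tested genes in each LS174T pair taken singly (log2, prior count of 2), NDUFA4 is its paralog, UQCR10 was lower in all 4 xenografts, and ATP5PF differed between the lines. Capitals mark matches, on either strand, to GCGCANGCG (NRF1 core), CCGGAAG (ETS core), AAGATGGC (YY1 core), and ACGTG or GCGTG (hypoxia-inducible factor core, a motif chosen after expression values were seen). The last 3 letters of the NRF1 core can open a GCGTG, so those matches may overlap. The windows lie at chr12:57240713-57241012 on the minus strand for NDUFA4L2, at chr7:10940104-10940403 on the minus strand for NDUFA4, at chr22:29767119-29767418 on the plus strand for UQCR10, and at chr21:25735005-25735304 on the minus strand for ATP5PF.
NDUFA4L2: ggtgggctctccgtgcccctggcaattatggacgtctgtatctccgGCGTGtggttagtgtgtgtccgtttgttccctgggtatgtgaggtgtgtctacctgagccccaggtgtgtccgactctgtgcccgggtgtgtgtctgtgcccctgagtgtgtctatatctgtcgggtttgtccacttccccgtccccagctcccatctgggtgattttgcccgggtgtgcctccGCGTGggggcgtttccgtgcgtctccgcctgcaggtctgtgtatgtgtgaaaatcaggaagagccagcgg
NDUFA4: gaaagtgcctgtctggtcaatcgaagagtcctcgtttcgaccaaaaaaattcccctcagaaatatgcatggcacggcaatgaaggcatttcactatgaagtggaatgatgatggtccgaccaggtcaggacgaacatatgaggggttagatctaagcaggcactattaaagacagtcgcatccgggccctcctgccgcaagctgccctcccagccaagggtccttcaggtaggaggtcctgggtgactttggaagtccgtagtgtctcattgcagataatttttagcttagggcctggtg
UQCR10: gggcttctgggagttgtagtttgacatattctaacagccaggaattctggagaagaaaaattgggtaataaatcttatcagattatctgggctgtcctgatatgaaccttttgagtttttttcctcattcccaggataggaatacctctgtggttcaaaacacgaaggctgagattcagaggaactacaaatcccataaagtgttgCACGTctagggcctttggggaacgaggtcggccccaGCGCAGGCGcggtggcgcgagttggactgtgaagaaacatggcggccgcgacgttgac
ATP5PF: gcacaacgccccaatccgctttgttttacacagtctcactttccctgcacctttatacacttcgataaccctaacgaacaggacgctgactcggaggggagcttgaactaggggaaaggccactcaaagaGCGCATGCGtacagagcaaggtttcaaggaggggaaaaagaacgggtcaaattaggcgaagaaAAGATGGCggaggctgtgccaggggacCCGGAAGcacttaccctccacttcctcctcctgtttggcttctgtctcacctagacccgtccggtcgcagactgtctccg

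The NDUFA4L2 window held 2 GCGTG matches and none of the other 3 motifs, and the NDUFA4 window held no match to any of the 4. The UQCR10 window held an NRF1 core and a CACGT, which is ACGTG on the other strand. The ATP5PF window held an NRF1 core, a YY1 core and an ETS core. A promoter was found for 73 of the 91 members, some by older symbols. The NRF1 core stood in 31.5% of the members' windows and in 8.05% of all 27305 windows of the table, the ETS core in 27.4% and 10.7%, and the YY1 core in 15.1% and 3.03%. At least 1 of these 3 stood in 57.5% of members' windows, against 19.2% of all windows. The short hypoxia core stood in 58.9% of members' windows and 48.4% of all windows. By complex, the NRF1 core was found in 9 of 33 windows for complex I, 2 of 3 for complex II, 4 of 7 for complex III, 2 of 16 for complex IV and 6 of 14 for complex V. A match describes letters only.

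CPM values here are counts scaled to library size with TMM factors, and the fold between a member's highest and lowest library had a median of 2.16 over the 82 tested members and 2.81 over the 14949 tested genes with counts in every library. It ran from 1.29 for COX8A to 834 for NDUFA4L2, with UQCRHL next at 7.48. Per kilobase of exon, the highest median levels were those of ATP5F1B, the catalytic beta subunit of ATP synthase, at 407 CPM per kb, COX8A at 334 CPM per kb, COX6B1 at 178 CPM per kb and NDUFS5 at 171 CPM per kb. Lowest among the tested members were NDUFA4L2 at 1.50 CPM per kb, NDUFA7 at 2.96 CPM per kb and NDUFV2 at 3.19 CPM per kb. Exons of NDUFA7 share 33.5% of their bases with other genes and those of NDUFV2 28.4%, which makes their levels uncertain. The length used moves such levels, since the longest transcript in place of all exons puts UQCRH second at 337 CPM per kb and leaves COX6B1 sixth at 249 CPM per kb and NDUFS5 ninth at 171 CPM per kb.

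Tissue-specific isoforms of complex IV were silent or nearly so. The heart, muscle, lung and testis forms COX4I2, COX6A2 and COX8C had 0 counts in all 8 libraries, where the floor of 3 counts corresponds to 0.0879 to 0.172 CPM, and so did the read-through NDUFC2-KCTD14. COX7A1 had 1 to 6 counts, COX7B2 0 to 11 counts, COX6B2 2 to 40 counts, the read-through ATP5MF-PTCD1 1 to 12 counts and ATP5MGL 0 to 3 counts, and none of these 9 entered a test. Exons of NDUFC2-KCTD14 share 100% of their bases with other genes and those of ATP5MF-PTCD1 93.8%. Few reads could be told apart as theirs, so their low counts do not show that the read-throughs were silent. COX6B2 reached 1 CPM by library totals in 1 library. The general counterparts of the complex IV isoforms were all strongly expressed. COX4I1 ran from 317 to 464 CPM, COX6A1 from 149 to 372 CPM, COX6B1 from 92.1 to 255 CPM, COX7A2 from 89.6 to 164 CPM, COX7B from 59.0 to 161 CPM and COX8A from 145 to 188 CPM.

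**Figure D1:**
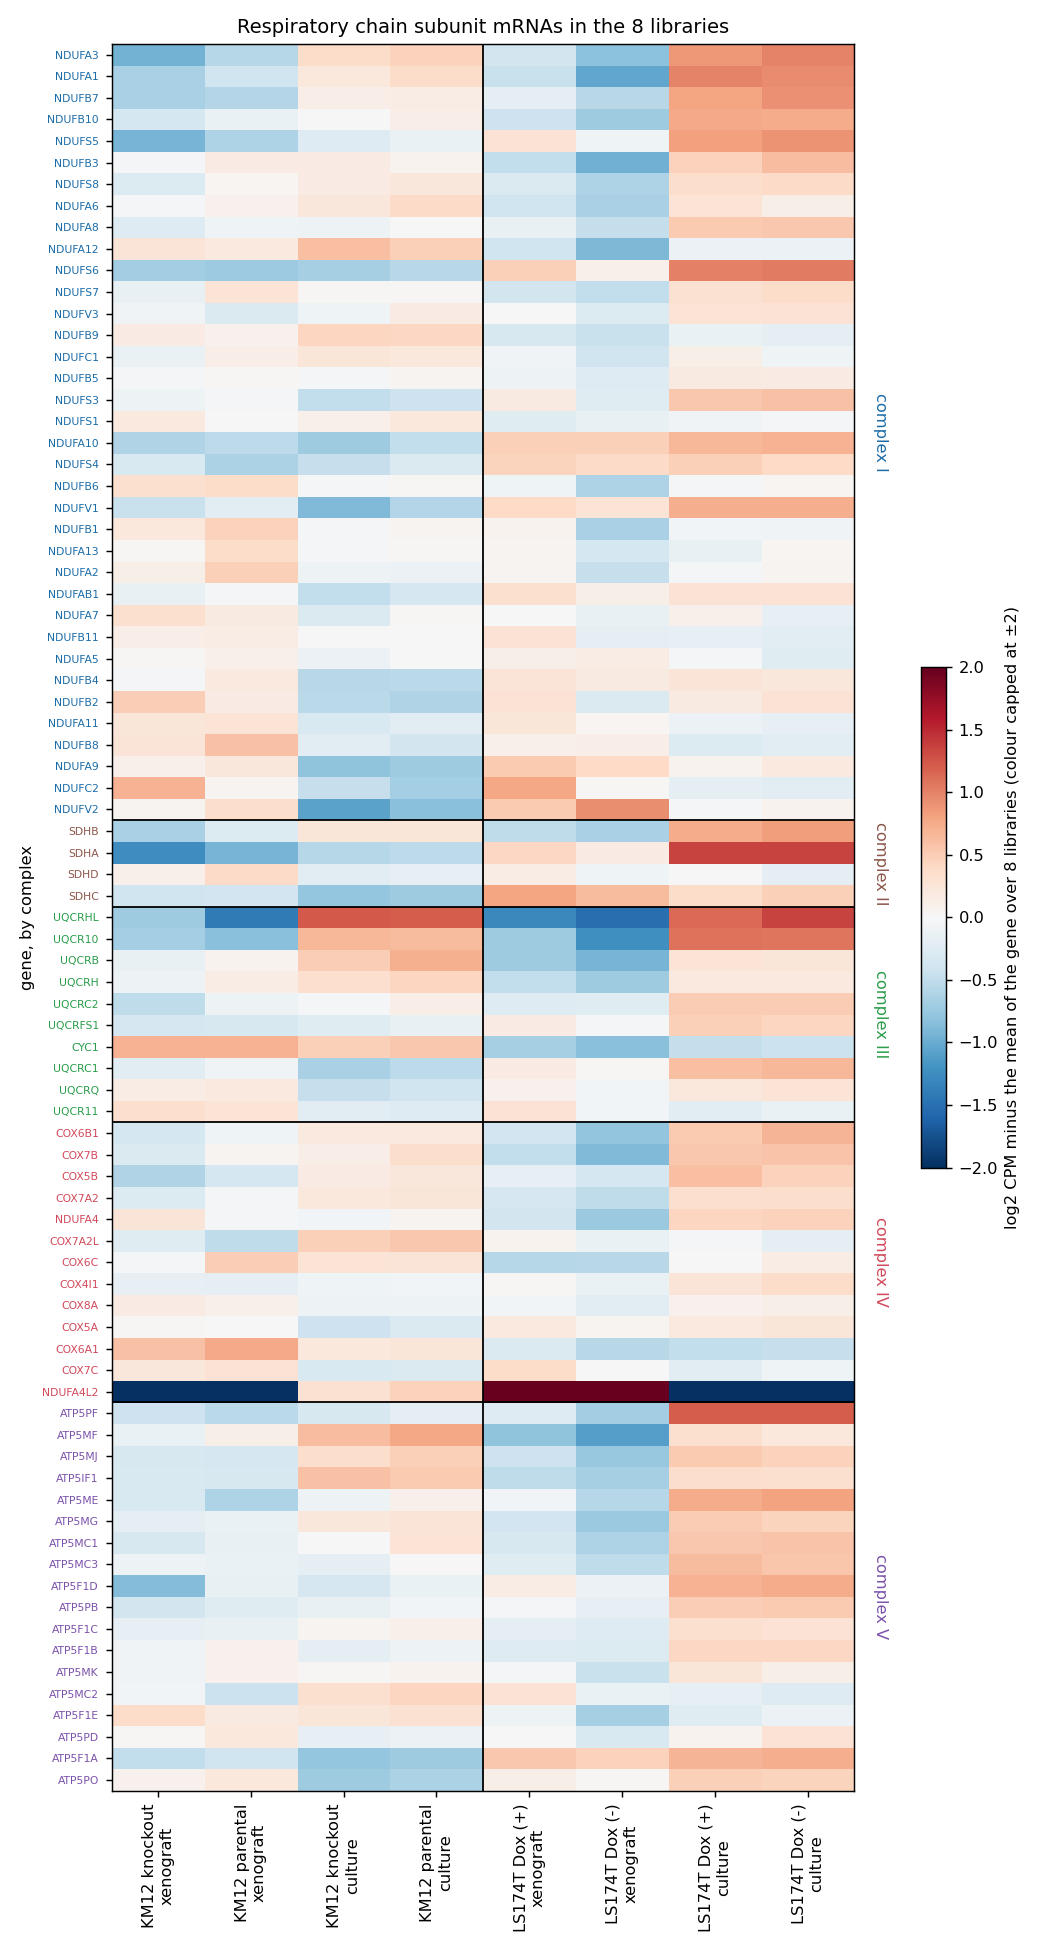
Log2 CPM of the tested members, with 1 left out, in the 8 libraries, centred on the member's mean over libraries and grouped by complex, with the colour scale capped at 2 log2 units either way. An LS174T culture is the highest library for 47 of all 82 tested members, 14 of 18 in complex V among them, and NDUFA4L2 stands out with high values in both LS174T xenografts.

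Growth as a xenograft against culture was compared in 4 pairs matched for line and GNAS state, with the pair as a block (edgeR quasi-likelihood test, Benjamini-Hochberg adjustment over all genes). Among the 82 tested members, 23 were lower and 3 were higher in xenografts at an adjusted p under 0.05, where 13.5% of all tested genes were lower and 12.6% were higher. The members' median log2 difference was -0.26, against 0.02 for all genes. All 4 xenografts lay below all 4 cultures for 22 members (26.8%) and above them for 6 (7.32%), where 13.8% and 12.6% of all tested genes did so. At an unadjusted p under 0.05, 39 members differed, where 42.5% of all genes did. The median over members was -0.09 in the KM12 knockout pair and -0.11 in the KM12 parental pair, and it was -0.32 in the LS174T Dox (+) pair and -0.57 in the LS174T Dox (-) pair, so the LS174T pairs lay further below 0. Summed over members, xenografts held 9171 CPM for KM12 knockout and 9888 CPM for KM12 parental, against 9898 CPM and 10463 CPM in the cultures of knockout and parental cells. LS174T xenografts held 9833 CPM for Dox (+) and 8632 CPM for Dox (-), against 13305 CPM and 13463 CPM in the Dox (+) and Dox (-) cultures.

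These counts rested on the scaling and on the LS174T pairs. Scaling by library totals in place of TMM raised the median environment difference of all genes by 0.28, and 11 members were then lower and 11 higher, so each direction below is relative to the bulk of genes as TMM sets it. Leaving out the LS174T Dox (+) pair left 0 members lower and 0 higher, with 11 genes called among all those tested, and leaving out the LS174T Dox (-) pair left 3 lower. Without the KM12 knockout pair 12 members were lower, and without the KM12 parental pair, whose xenograft held the high COL3A1 counts, 17 were lower. None was called higher without any 1 of the 4 pairs. The p-values measure the spread between these 4 pairs, not between repeated cultures or animals, on 3 residual degrees of freedom before moderation.

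**Figure D2:**
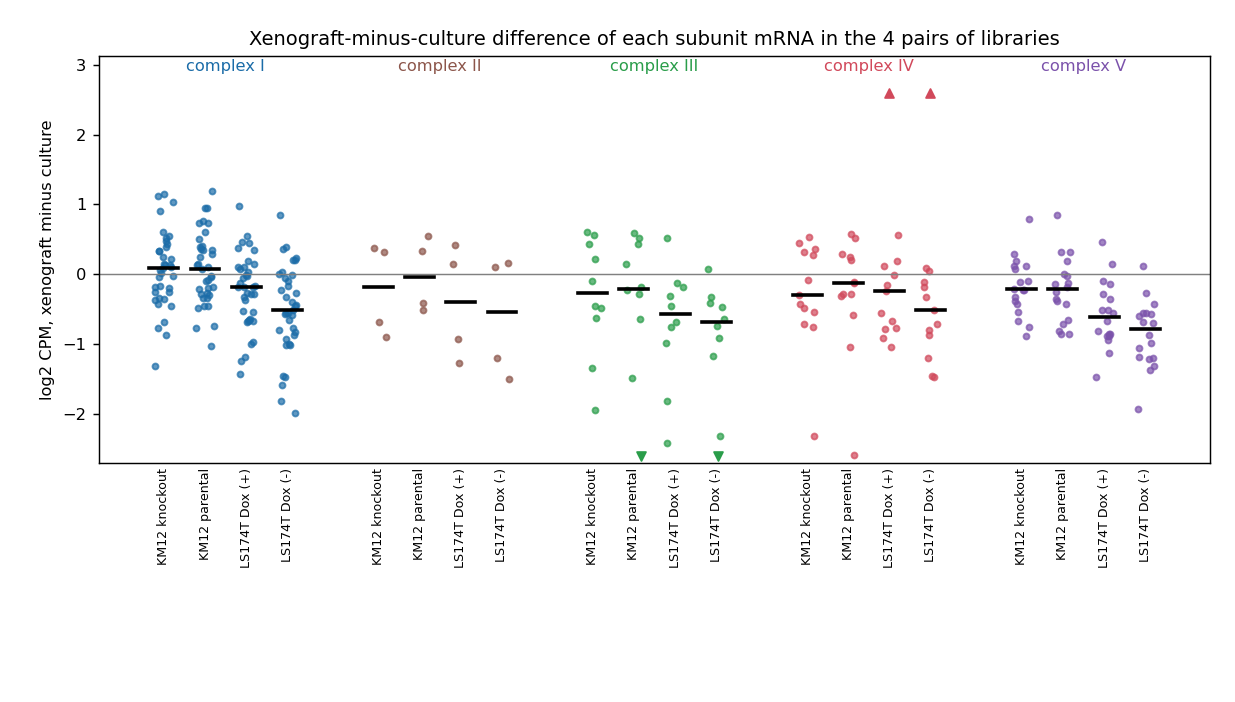
Log2 CPM difference, xenograft minus culture, of each tested member in each of the 4 pairs, by complex, with triangles for values outside 2.6 log2 units. Black bars are medians, the LS174T Dox (-) pair has the lowest median in each of the 5 complexes, and the triangles are NDUFA4L2 above the axis in LS174T and UQCRHL below it in 2 pairs.

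Of the 37 tested members of complex I, 3 were higher (8.11%) and 6 lower (16.2%), both near the shares over all genes. The median was -0.09, and the pair medians were 0.09 in KM12 knockout, 0.08 in KM12 parental, -0.18 in LS174T Dox (+) and -0.52 in LS174T Dox (-). NDUFV2, an iron-sulphur subunit of the module that oxidises NADH, had 8.59 CPM in knockout and 10.7 CPM in parental KM12 xenografts, against 3.93 CPM and 4.64 CPM in the knockout and parental cultures. LS174T cells had 11.9 CPM in Dox (+) and 15.8 CPM in Dox (-) xenografts, against 8.15 CPM and 8.72 CPM in the Dox (+) and Dox (-) cultures. Each xenograft exceeded its own culture, and the log2 difference was 0.93 ± 0.22 (SE, n = 4 pairs; edgeR adjusted p = 0.0332). The accessory subunit NDUFA9 was higher by 0.63 ± 0.17 (edgeR adjusted p = 0.0422), with 62.9 to 83.8 CPM in xenografts and 33.4 to 67.0 CPM in cultures. NDUFB8, a membrane arm subunit, was higher by 0.55 ± 0.16 (edgeR adjusted p = 0.0494), with 30.2 to 42.1 CPM in xenografts and 21.7 to 24.1 CPM in cultures, without overlap. NDUFC2, another membrane arm subunit, had 10.7 to 17.9 CPM in xenografts and 6.50 to 9.11 CPM in cultures and a difference of 0.78 ± 0.23, which missed the threshold (edgeR adjusted p = 0.0558). Exons of NDUFB8 share 48.5% of their bases with other annotated genes and those of NDUFV2 28.4%. Reads there may have been left out or may belong to neighbours, so these counts may be too low or too high.

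Several accessory subunits of complex I fell. NDUFA3, a small membrane subunit, had 32.6 CPM in knockout and 42.2 CPM in parental KM12 xenografts, against 80.6 CPM and 86.2 CPM in knockout and parental cultures. Its LS174T values were 48.5 CPM in the Dox (+) and 35.5 CPM in the Dox (-) xenograft, against 114 CPM and 125 CPM in the Dox (+) and Dox (-) cultures. The groups did not overlap, and the difference was -1.35 ± 0.16 (edgeR adjusted p = 0.0098). NDUFA1, an X-linked subunit needed for assembly, fell by 1.26 ± 0.23 on the log2 scale (edgeR adjusted p = 0.0186), with 30.0 to 46.8 CPM in xenografts and 71.9 to 122 CPM in cultures. NDUFB7, which faces the intermembrane space, fell by 0.99 ± 0.16 (edgeR adjusted p = 0.0154), with 49.1 to 66.7 CPM in xenografts and 83.8 to 144 CPM in cultures. NDUFS5 (-0.67) and NDUFA6 (-0.50) fell as well. Exons of NDUFA1 share 44.5% of their bases with RNF113A.

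Complex II, which is also an enzyme of the citric acid cycle, split between its parts. SDHA, the flavoprotein, had 82.0 CPM in knockout and 102 CPM in parental KM12 xenografts, against 131 CPM and 135 CPM in knockout and parental cultures. In LS174T the values were 261 CPM in the Dox (+) and 218 CPM in the Dox (-) xenograft, against 497 CPM and 498 CPM in the Dox (+) and Dox (-) cultures. Within each line every xenograft lay below both cultures, and SDHA fell by 0.80 ± 0.17 (SE, n = 4 pairs; edgeR adjusted p = 0.0239). SDHB, the iron-sulphur subunit, had 67.6 CPM in knockout and 87.8 CPM in parental KM12 xenografts, against 125 CPM in each KM12 culture. Its LS174T values were 74.0 CPM in the Dox (+) and 67.1 CPM in the Dox (-) xenograft, against 177 CPM and 189 CPM in the Dox (+) and Dox (-) cultures. All xenografts lay below all cultures, and SDHB fell by 1.04 ± 0.19 (edgeR adjusted p = 0.0183).

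The membrane anchors of complex II did not pass the test. SDHC had 44.9 CPM in knockout and 45.5 CPM in parental KM12 xenografts, against 34.7 CPM and 36.2 CPM in knockout and parental cultures. In LS174T libraries it had 103 CPM in the Dox (+) and 92.5 CPM in the Dox (-) xenograft, against 76.7 CPM and 82.2 CPM in the Dox (+) and Dox (-) cultures. SDHC was above its culture in all 4 pairs, with a difference of 0.32 ± 0.11 (edgeR adjusted p = 0.0827). SDHD had 80.9 CPM in knockout and 97.9 CPM in parental KM12 xenografts, against 65.0 CPM and 66.9 CPM in knockout and parental cultures. Its LS174T values were 83.7 CPM in the Dox (+) and 70.7 CPM in the Dox (-) xenograft, against 75.5 CPM and 65.7 CPM in the Dox (+) and Dox (-) cultures. SDHD was likewise above its culture in all 4 pairs, by 0.28 ± 0.13 (edgeR adjusted p = 0.154).

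Complex III had 5 of 10 members lower (50%) and 0 higher, where 13.5% of all genes were lower and 12.6% higher, with a median of -0.41. UQCR10, a small subunit beside cytochrome c1, had 59.3 CPM in knockout and 53.1 CPM in parental KM12 xenografts, against 150.3 CPM and 148 CPM in knockout and parental cultures. LS174T libraries held 58.1 CPM in the Dox (+) and 40.4 CPM in the Dox (-) xenograft, against 203 CPM and 200.0 CPM in the Dox (+) and Dox (-) cultures. The groups lay far apart, and each xenograft-over-culture ratio was below 1, at 0.394 in KM12 knockout, 0.359 in KM12 parental, 0.286 in LS174T Dox (+) and 0.202 in LS174T Dox (-). The log2 difference was -1.73 ± 0.19 (edgeR adjusted p = 0.00972), and no exon base of UQCR10 is shared with another gene. UQCRHL, an intron-poor copy of the hinge protein gene UQCRH, had 2.89 to 5.10 CPM in xenografts and 18.4 to 21.6 CPM in cultures, a difference of -2.48 ± 0.24 (edgeR adjusted p = 0.00968). UQCRH itself ran from 126 to 228 CPM in xenografts and from 234 to 278 CPM in cultures (-0.58 ± 0.15, edgeR adjusted p = 0.0381), and reads of the pair may be exchanged. UQCRB fell by 0.86 on the log2 scale and the core subunit UQCRC2 by 0.55.

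CYC1, the cytochrome c1 gene, showed no such fall. It had 353 CPM in knockout and 351 CPM in parental KM12 xenografts, against 304 CPM and 316 CPM in knockout and parental cultures, and 138 CPM in the Dox (+) and 122 CPM in the Dox (-) LS174T xenograft, against 157 CPM and 161 CPM in the Dox (+) and Dox (-) cultures. The KM12 pairs lay above 0 and the LS174T pairs below it, with a 4-pair difference of -0.05 ± 0.15 (edgeR adjusted p = 0.807).

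Complex IV had 4 of 13 tested members lower (30.8%) and 0 higher, where 13.5% of all genes were lower and 12.6% higher. Its median was -0.33. COX6B1, which faces cytochrome c, had 92.1 to 151 CPM in xenografts and 182 to 255 CPM in cultures and fell by 0.80 ± 0.22 (edgeR adjusted p = 0.0429). COX7B had 59.0 to 112 CPM in xenografts and 119 to 161 CPM in cultures and fell by 0.80 ± 0.22 (edgeR adjusted p = 0.0468). COX5B, a zinc-binding subunit, had 126 to 171 CPM in xenografts and 214 to 291 CPM in cultures and fell by 0.73 ± 0.12 (edgeR adjusted p = 0.0144). COX7A2 had 89.6 to 125 CPM in xenografts and 148 to 164 CPM in cultures and fell by 0.58 ± 0.14 (edgeR adjusted p = 0.034).

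Complex V had 6 of 18 tested members lower (33.3%) and 0 higher, where 13.5% of all genes were lower and 12.6% higher. The median of -0.45 in complex V was the lowest of the 5 complexes. Its falling members were small: ATP5MF (-0.96 ± 0.16), ATP5MJ (-0.91 ± 0.14), ATP5ME (-0.77 ± 0.20) and ATP5MG (-0.72 ± 0.18) sit in the membrane part, ATP5MC1 (-0.70 ± 0.18) encodes a ring subunit, and ATP5IF1 is the natural inhibitor of ATP hydrolysis. ATP5IF1 had 178 CPM in knockout and 175 CPM in parental KM12 xenografts, against 327 CPM and 314 CPM in knockout and parental cultures. In LS174T it had 154 CPM in the Dox (+) and 138 CPM in the Dox (-) xenograft, against 278 CPM and 273 CPM in the Dox (+) and Dox (-) cultures. The difference was -0.86 within KM12 and -0.91 within LS174T, and over the 4 pairs it was -0.89 ± 0.12 (edgeR adjusted p = 0.0107). The catalytic subunit genes ATP5F1A and ATP5F1B did not pass, the second of them with 831 to 1069 CPM in xenografts and 882 to 1334 CPM in cultures. ATP5ME is the 1 tested member that shares at least 50% of its exon bases with another gene (61.6%, with MYL5).

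Fitted within each line, with the 4 pairs in 1 model and 2 residual degrees of freedom before moderation, the 2 lines gave different counts. In LS174T 41 members were lower and 1 was higher, where 22.5% of all genes were lower and 23.4% higher, and the median was -0.42 against 0.03 for all genes. In KM12 17 members were lower and 12 higher, where 15.5% of all genes were lower and 14.3% higher, and the median was -0.07. Scaled by library totals, the LS174T counts became 32 lower and 12 higher, and the KM12 counts 8 lower and 26 higher. The LS174T count fell to 11 lower without the Dox (-) pair and to 26 without the Dox (+) pair, and the 12 higher members of KM12 became 6, 6, 6 and 5 when each pair was left out in turn. Without the KM12 parental pair, 15 members were still lower in KM12.

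Both lines shared 14 lower members, which is 82.4% of the KM12 list and 34.1% of the LS174T list. Over all tested genes the overlap was 1382, which is 55.6% of the KM12 list and 38.1% of the LS174T list, and both lines' tests share 1 model. Among them were ATP5IF1, ATP5MF, ATP5MJ, COX5B, NDUFA1, NDUFA3, NDUFB7, NDUFS5, SDHA, SDHB, UQCR10, UQCRB and UQCRHL. The 12 members higher in KM12 were NDUFV2 (1.16), NDUFC2 (0.95), NDUFA9 (0.93), NDUFB2 (0.90), ATP5PO (0.82), NDUFB8 (0.72), NDUFB4 (0.63), UQCRQ (0.60), COX7C (0.55), UQCR11 (0.54), NDUFA11 (0.53) and UQCRC1 (0.44), of which 7 belong to complex I. They are 14.6% of the tested members, near the 14.3% of all genes that were higher in KM12. The 7 are 18.9% of the tested members of complex I. No complex I member was higher in LS174T, where 15 of 37 were lower (40.5%). Of the 18 tested members of complex V, 12 were lower in LS174T, and 4 were lower (22.2%) and 1 higher (5.56%) in KM12. Over all genes, 22.5% were lower and 23.4% higher in LS174T, and 15.5% were lower and 14.3% higher in KM12.

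The difference between the lines was tested as an interaction, coded as the KM12 environment difference minus that of LS174T. It was positive for 75 of 82 members, with a median of 0.44 against 0.00 for all genes. In all, 14 members passed with a positive difference and 3 with a negative one, where 5.94% and 7.74% of all genes did so. A positive difference can also mean a smaller fall in KM12, as for NDUFA1, which was lower in xenografts of both lines. A total of 35 members had an unadjusted p under 0.05, where 30.2% of all genes did. Leaving out either LS174T pair left 0 members with a positive difference past the threshold and 1 with a negative one, when 203 genes in all were called without the Dox (+) pair and 97 without the Dox (-) pair.

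**Figure D3:**
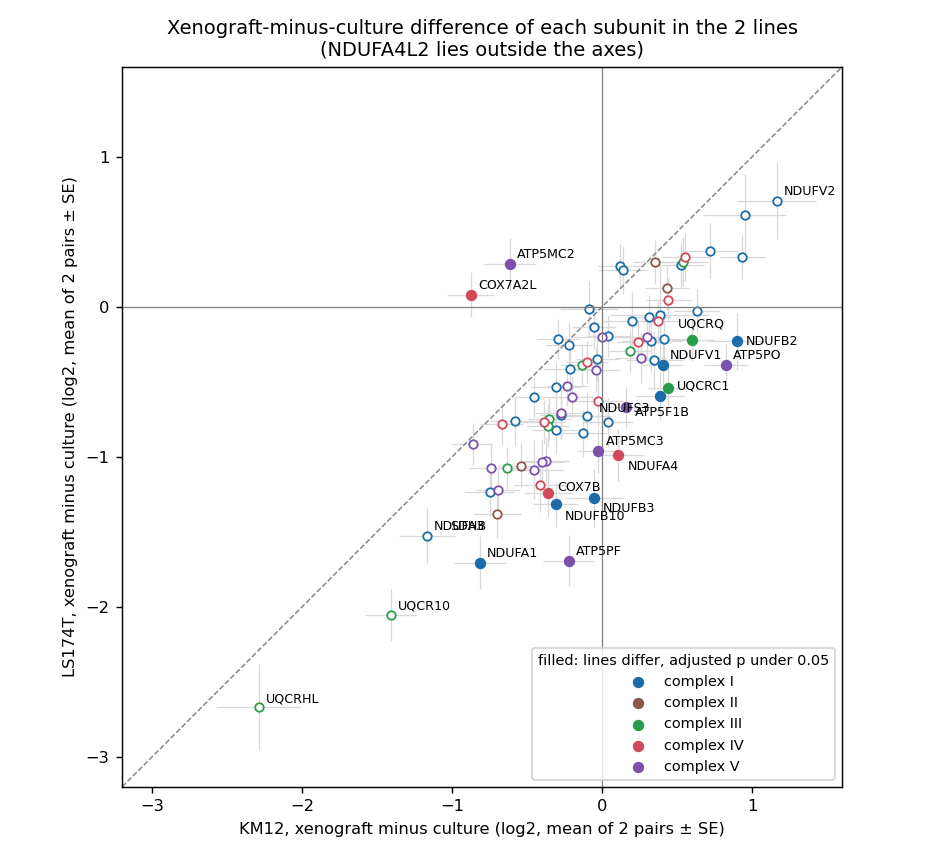
Environment difference (xenograft minus culture, log2) in LS174T against that in KM12 for each tested member except NDUFA4L2, which lies off both axes at 9.38 and -2.50. Bars are SE, filled points are members whose lines differed at an adjusted p under 0.05, and 75 of the 82 tested members have a lower value in LS174T than in KM12.

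ATP5PF, the coupling factor of the peripheral stalk, carried the smallest p among members with a positive difference. It had 57.8 CPM in knockout and 53.1 CPM in parental KM12 xenografts, against 62.0 CPM and 67.5 CPM in knockout and parental cultures. The LS174T values were 64.7 CPM in the Dox (+) and 47.4 CPM in the Dox (-) xenograft, against 178 CPM and 180 CPM in the Dox (+) and Dox (-) cultures. The LS174T cultures stood apart from the other 6 libraries, and the environment difference was 1.47 ± 0.24 log2 units higher in KM12 (edgeR adjusted p = 0.00744). Exons of ATP5PF share 23.1% of their bases with other genes, GABPA and JAM2 among them.

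ATP5PO, which joins that stalk to the catalytic head, and UQCRC1, a core subunit of complex III, moved in opposite directions in the 2 lines. ATP5PO had 60.7 CPM in knockout and 66.6 CPM in parental KM12 xenografts, against 34.8 CPM and 37.0 CPM in knockout and parental cultures. LS174T cells had 62.1 CPM in the Dox (+) and 58.1 CPM in the Dox (-) xenograft, against 79.5 CPM and 77.7 CPM in the Dox (+) and Dox (-) cultures. The KM12 difference was 0.82 ± 0.14 (edgeR adjusted p = 0.00552), the LS174T difference of -0.39 ± 0.14 missed the threshold (edgeR adjusted p = 0.0532), and the difference between them was 1.21 ± 0.20 (edgeR adjusted p = 0.00817). UQCRC1 had 259 CPM in knockout and 284 CPM in parental KM12 xenografts, against 191 CPM and 209 CPM in knockout and parental cultures. In LS174T the values were 334 CPM in the Dox (+) and 305 CPM in the Dox (-) xenograft, against 456 CPM and 473 CPM in the Dox (+) and Dox (-) cultures. It was higher in KM12 xenografts by 0.44 ± 0.14 (edgeR adjusted p = 0.0442) and lower in LS174T xenografts by -0.54 ± 0.14 (edgeR adjusted p = 0.0139), with a difference between lines of 0.98 ± 0.20 (edgeR adjusted p = 0.0161).

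NDUFA4L2 showed the opposite order, on a far larger scale. NDUFA4L2 is known as a target of hypoxia-inducible factor whose product restrains complex I activity, and it lies at chr12:57234903-57240715 on the minus strand (GRCh38). KM12 xenografts held 1.36 CPM (28 counts) in knockout and 1.26 CPM (22 counts) in parental cells, against 7.06 CPM (241 counts) and 7.91 CPM (230 counts) in the knockout and parental cultures. LS174T xenografts held 249 CPM (5128 counts) in Dox (+) and 244 CPM (5985 counts) in Dox (-), against 0.298 CPM (9 counts) and 0.430 CPM (14 counts) in the Dox (+) and Dox (-) cultures. These 4 sets of values did not overlap. The xenograft-over-culture ratio was 834 in LS174T Dox (+) with a 95% interval of 439 to 1825, and 567 in LS174T Dox (-) with an interval of 337 to 1037. It was 0.193 (0.125 to 0.285) in KM12 knockout and 0.159 (0.0980 to 0.247) in KM12 parental, and these intervals cover counting error only.

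Ranked over 16070 genes, NDUFA4L2 had the highest xenograft-over-culture log2 difference in both LS174T pairs with a prior count of 2, at 9.38 in Dox (+) and 8.91 in Dox (-). In the fitted LS174T difference, where values reached 12.44, it ranked 8. In KM12 it fell, with -2.50 ± 0.21 (edgeR adjusted p = 4.69e-04), and in LS174T it was higher by 9.38 ± 0.25 (edgeR adjusted p = 2.33e-06). The difference between lines was -11.88 ± 0.32 (edgeR adjusted p = 2.66e-06). The 4-pair difference of 3.22 ± 4.80 therefore averaged opposite responses and did not pass (edgeR adjusted p = 0.634). Only 1.18% of its exon bases are shared with another gene, SHMT2.

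The paralog NDUFA4, a constitutive subunit of complex IV, went the other way between the lines. It had 144 CPM in knockout and 117 CPM in parental KM12 xenografts, against 115 CPM and 125 CPM in knockout and parental cultures. In LS174T libraries it had 93.7 CPM in the Dox (+) and 72.3 CPM in the Dox (-) xenograft, against 162 CPM and 165 CPM in the Dox (+) and Dox (-) cultures. NDUFA4 was lower in LS174T xenografts by -0.99 ± 0.17 (edgeR adjusted p = 0.00287), the KM12 groups overlapped (0.11 ± 0.17, edgeR adjusted p = 0.668), and the lines differed by 1.10 ± 0.24 (edgeR adjusted p = 0.0238). Per kilobase of exon, NDUFA4L2 had 88.6 CPM per kb and NDUFA4 26.3 CPM per kb in the LS174T Dox (+) xenograft, and 86.8 and 20.3 CPM per kb in the Dox (-) xenograft. In the other 6 libraries NDUFA4L2 had at most 2.82 CPM per kb and NDUFA4 at least 32.5 CPM per kb.

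**Figure D4:**
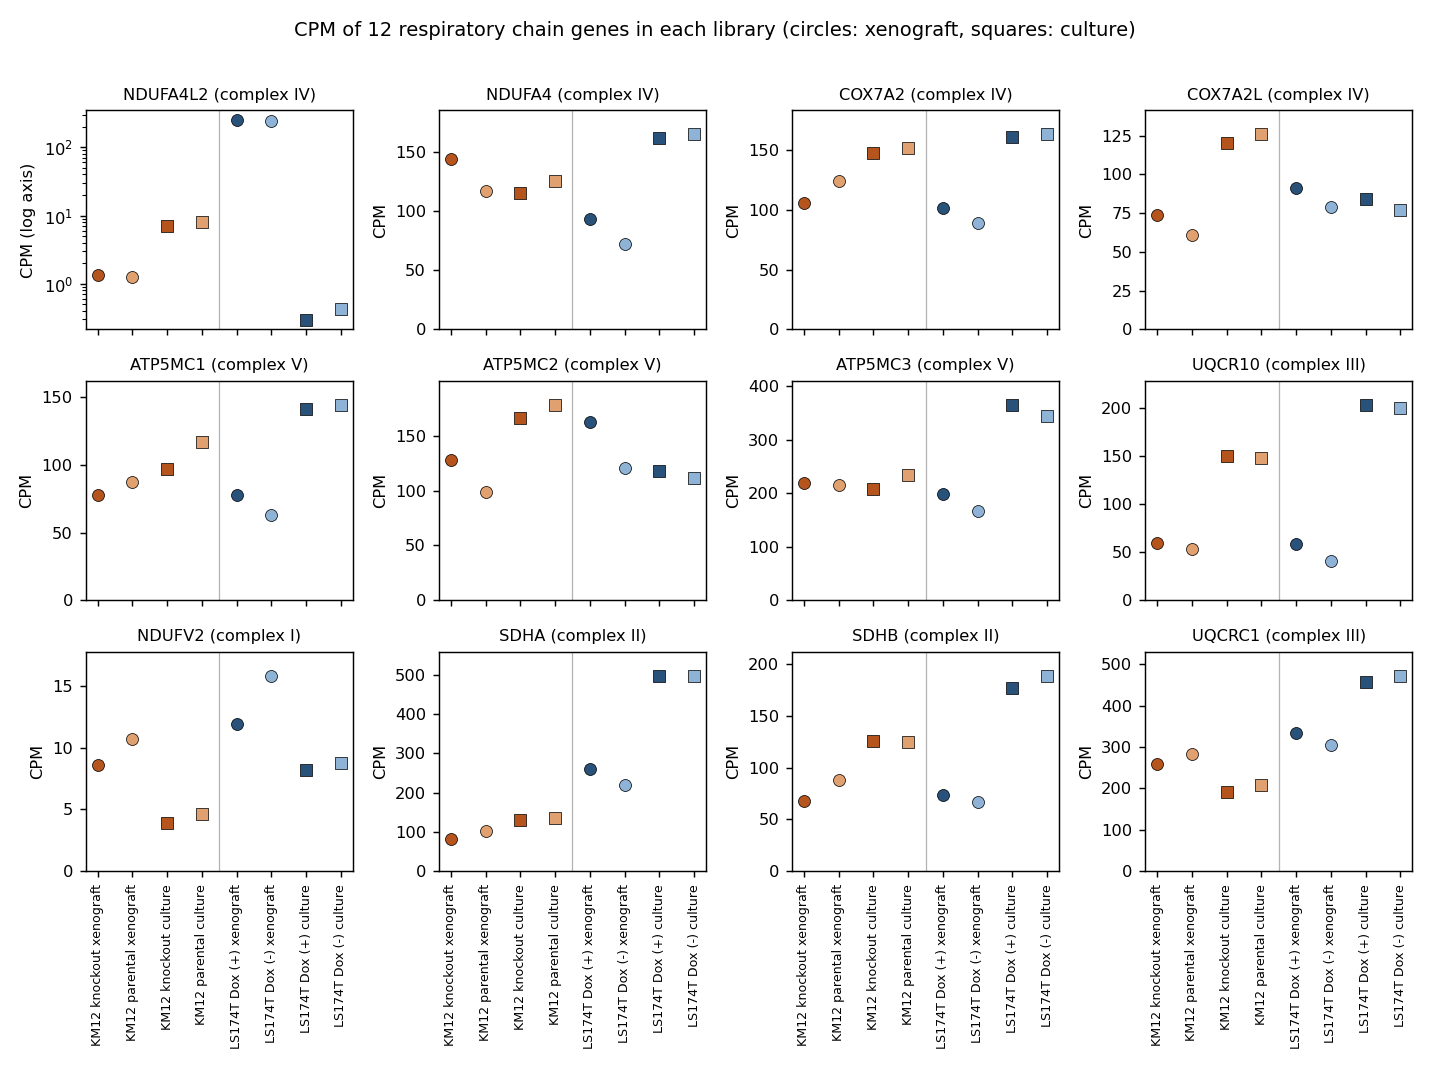
CPM in each of the 8 libraries for 12 members, xenografts as circles and cultures as squares, with 1 point a library and a log axis for NDUFA4L2 and linear axes from 0 elsewhere. NDUFA4L2 is near 249 CPM in LS174T xenografts and below 8 CPM in the other 6 libraries, and UQCR10 and SDHB are lower in each xenograft than in each culture.

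COX7A2L and ATP5MC2 were the other 2 members whose difference favoured LS174T. COX7A2L, known for joining complexes III and IV into supercomplexes, had 73.5 CPM in knockout and 61.1 CPM in parental KM12 xenografts, against 120.4 CPM and 126 CPM in knockout and parental cultures. LS174T libraries held 91.2 CPM in the Dox (+) and 79.2 CPM in the Dox (-) xenograft, against 84.2 CPM and 76.7 CPM in the Dox (+) and Dox (-) cultures. It fell in KM12 (-0.88 ± 0.15, edgeR adjusted p = 0.00568), had a difference of 0.08 ± 0.15 in LS174T, and differed between lines by -0.96 ± 0.22 (edgeR adjusted p = 0.0249).

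The 3 genes ATP5MC1, ATP5MC2 and ATP5MC3 encode the same mature ring subunit of ATP synthase, yet they did not share a pattern. ATP5MC2 had 128 CPM in knockout and 98.4 CPM in parental KM12 xenografts, against 166 CPM and 178 CPM in knockout and parental cultures. In LS174T it had 162 CPM in the Dox (+) and 121 CPM in the Dox (-) xenograft, against 118 CPM and 112 CPM in the Dox (+) and Dox (-) cultures. It fell in KM12 by 0.62 on the log2 scale (edgeR adjusted p = 0.0307), had 0.29 ± 0.17 in LS174T (edgeR adjusted p = 0.205), and differed between lines by -0.90 ± 0.25 (edgeR adjusted p = 0.0454).
ATP5MC3 had 219 CPM in knockout and 215 CPM in parental KM12 xenografts, against 208 CPM and 235 CPM in knockout and parental cultures, and 199.5 CPM in the Dox (+) and 167 CPM in the Dox (-) LS174T xenograft, against 366 CPM and 345 CPM in the Dox (+) and Dox (-) cultures. It fell in LS174T by 0.96 on the log2 scale (edgeR adjusted p = 0.00142), had a difference of -0.03 in KM12 (edgeR adjusted p = 0.91), and the lines differed by 0.93 ± 0.20 (edgeR adjusted p = 0.0215). ATP5MC1 had 77.8 CPM in knockout and 87.3 CPM in parental KM12 xenografts, against 97.3 CPM and 117 CPM in knockout and parental cultures, and 77.8 CPM in the Dox (+) and 63.1 CPM in the Dox (-) LS174T xenograft, against 141 CPM and 144 CPM in the Dox (+) and Dox (-) cultures. Its 4 xenografts lay below its 4 cultures.

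KM12 was compared with LS174T in 4 pairs matched for setting, with KM12 knockout set against LS174T Dox (-) and KM12 parental against LS174T Dox (+), a matching that the labels do not state. Of the 82 members 7 were higher (8.54%) and 13 lower (15.85%) in KM12, where 14.8% of all genes were higher and 16.7% lower. The lower share was thus near that over all genes, and the higher share was below it. The members' median was -0.06 against 0.02 for all genes. The counts were 4 higher and 13 lower without the pair of KM12 knockout and LS174T Dox (-) xenografts, 4 and 10 without that of KM12 parental and LS174T Dox (+) xenografts, 2 and 9 without that of knockout and Dox (-) cultures, and 3 and 8 without that of parental and Dox (+) cultures. Complex I held 8 of the lower members, 21.6% of its 37 tested, and complex II held 2 of its 4. SDHA, with 82.0 to 135 CPM in KM12 and 218 to 498 CPM in LS174T, was lower by -1.64 ± 0.16 (edgeR adjusted p = 0.00194). SDHC, with 34.7 to 45.5 CPM in KM12 and 76.7 to 103 CPM in LS174T, was lower by -1.14 ± 0.11 (edgeR adjusted p = 0.00188). NDUFS6, a zinc-binding subunit, had 33.1 to 37.4 CPM in KM12 and 59.3 to 113 CPM in LS174T (-1.32 ± 0.18, edgeR adjusted p = 0.00542). NDUFA10 had 65.6 to 76.1 CPM in KM12 and 149.7 to 174 CPM in LS174T (-1.16 ± 0.12, edgeR adjusted p = 0.00244).

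ATP5F1A, the alpha subunit of the catalytic head, had 208 to 270 CPM in KM12 and 491 to 590 CPM in LS174T (-1.20 ± 0.16, edgeR adjusted p = 0.00485), while its partner ATP5F1B overlapped between the lines. NDUFV1, the flavin subunit of complex I, was lower in KM12 by -1.06 ± 0.20, NDUFS5 by -0.96 ± 0.11 and NDUFS4 by -0.85 ± 0.13. CYC1 stood at the other end, with 304 to 353 CPM in KM12 and 122 to 161 CPM in LS174T, a difference of 1.20 ± 0.15 (edgeR adjusted p = 0.00419). COX6A1 had 255 to 372 CPM in KM12 and 149 to 179 CPM in LS174T (0.90 ± 0.14, edgeR adjusted p = 0.00729). The other 5 higher members were NDUFA12 (0.77), ATP5MF (0.69), UQCRB (0.56), ATP5F1E (0.55) and NDUFB9 (0.54).

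For the GNAS state, the 4 pairs were KM12 parental against knockout and LS174T Dox (+) against Dox (-), in each setting, and the fitted difference was coded as parental minus knockout and as Dox (+) minus Dox (-). In LS174T that state goes with doxycycline itself and no library separates them, so drug and GNAS state cannot be told apart there. At an adjusted p under 0.05 the edgeR test called 0 members, where 0.0% of all genes were higher and 0.0% lower, and DESeq2 and limma-voom also called 0. ATP5MF was the 1 member with an unadjusted p under 0.05, where 6.08% of all genes had one. The difference lay above 0 for 78 of 82 members, but the median was small at 0.09, against 0.01 for all genes. The 4 members with the smallest p were ATP5MF (0.20 ± 0.09), NDUFA1 (0.26 ± 0.11), SDHD (0.19 ± 0.09) and UQCRB (0.17 ± 0.08), each above 0 in all 4 pairs with an edgeR adjusted p of 0.776. GNAS itself had 1.03 ± 0.28 and the same adjusted p, so this design did not call the targeted gene either.

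Single pairs show where that median arose. In LS174T xenografts, Dox (+) exceeded Dox (-) for 75 of 82 members (91.5%, where 50.5% of all genes did), with a median log2 difference of 0.25. In LS174T cultures, Dox (+) exceeded Dox (-) for 29 members (35.4%, where 49.8% of all genes did), and the median was -0.03. In KM12 xenografts, the knockout exceeded the parental line for 26 members (31.7%, where 45.9% of all genes did), with a median of -0.09, and in KM12 cultures for 15 members (18.3%, where 49.3% of all genes did), with a median of -0.07. These pairs are 1 library against 1 and have no replicate check, and the members of a pair share the same 2 libraries. In LS174T xenografts the Dox (+) library held a summed 22754 CPM of hypoxia and glycolysis genes and 75346 CPM of cytosolic ribosomal protein genes, against 28763 CPM and 61430 CPM in Dox (-), and their part in the members' difference was not tested.

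**Figure D5:**
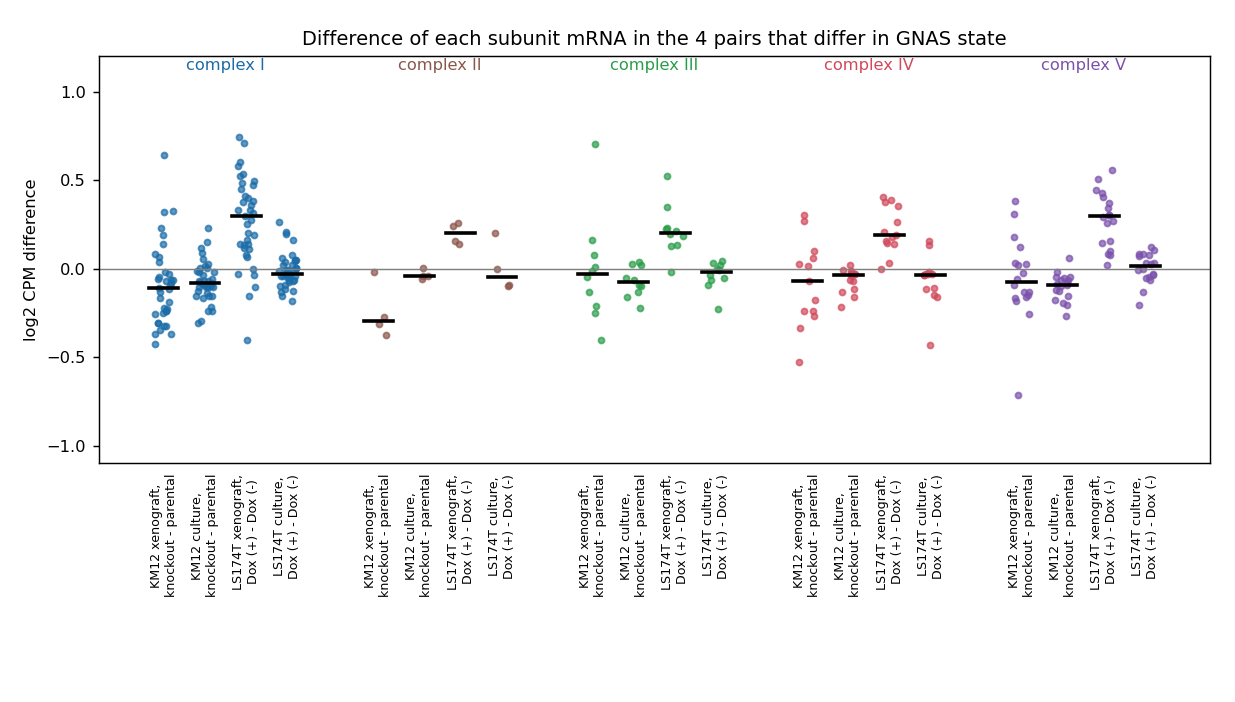
Log2 CPM difference of each tested member in the 4 GNAS pairs, KM12 knockout minus parental and LS174T Dox (+) minus Dox (-), in xenografts and cultures. Most members lie below 0 in the KM12 pairs, 75 of 82 lie above 0 in the LS174T xenograft pair, and the LS174T culture pair is centred near -0.03.

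Whether the GNAS difference itself varied between lines was tested as the KM12 difference minus the LS174T difference. It called 0 members by edgeR and 0 members had an unadjusted p under 0.05, where 4.03% of all genes had one and 0.00622% were called higher and 0.0% lower. The members with the smallest p were UQCRC2 (0.29), NDUFV2 (0.53) and ATP5F1D (0.35) on the positive side and NDUFC2 (-0.81), ATP5MC2 (-0.39) and NDUFB2 (-0.43) on the negative side, and the edgeR adjusted p of each was 0.965.

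Other genes of the same pathways were counted in the same environment test, in which 13.5% of all genes were lower and 12.6% higher. Of the 13 mRNAs of the mitochondrial genome, which encode the partner subunits of the complexes, 8 were lower in xenografts and 0 higher, with a median of -0.84. MT-ATP8 had 199 CPM in knockout and 114 CPM in parental KM12 xenografts, against 2519 CPM and 2534 CPM in knockout and parental cultures, and 180 CPM in the Dox (+) and 133 CPM in the Dox (-) LS174T xenograft, against 2572 CPM and 2518 CPM in the Dox (+) and Dox (-) cultures. Its difference was -4.05 ± 0.22 (edgeR adjusted p = 0.00301), and those of MT-ND5 (-2.21 ± 0.19) and MT-ND6 (-2.06 ± 0.25) came next. MT-ATP6, which overlaps MT-ATP8 in the mitochondrial genome so that counts of the pair are uncertain, had 3859 to 5475 CPM in xenografts and 6979 to 8665 CPM in cultures and fell by 0.79 ± 0.18 (edgeR adjusted p = 0.0277). MT-CO1, chosen after its values were seen, was the 1 mRNA higher in LS174T, with 16355 CPM in the Dox (+) and 16458 CPM in the Dox (-) xenograft, against 11438 CPM and 12613 CPM in the Dox (+) and Dox (-) cultures (0.45 ± 0.15, edgeR adjusted p = 0.0362). Within lines, 9 of the 13 were lower in KM12, and 12 were lower and 1 higher in LS174T. Of all genes, 15.5% were lower in KM12, and 22.5% were lower and 23.4% higher in LS174T. The difference between lines was called for MT-ND1 (1.90) and MT-ND2 (1.73) and for no other. Copies in the nuclear genome are not particular to these genes, and their part in the counts was not tested.

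Mitochondrial ribosomal protein genes, which serve the translation of those mRNAs, had 32 of 78 lower and 1 higher, with a median of -0.43, and MRPL36 (-1.36 ± 0.17), MRPS34 (-1.08 ± 0.13) and MRPL32 (-0.87 ± 0.12) were among them. Citric acid cycle genes had 5 of 18 lower and 1 higher, with a median of -0.51. OGDH, the oxoglutarate dehydrogenase gene, had -1.58 ± 0.28 and MDH2 -0.69 ± 0.13, while SUCLG2 had 0.84 ± 0.19. Assembly factors had 8 of 50 lower (16%) and 4 higher (8%), near the shares of 13.5% and 12.6% over all genes, with a median of -0.09. COX16 (1.09 ± 0.14) and COX18 (1.09 ± 0.15) led on the higher side and the complex I factor NDUFAF2 (-1.08 ± 0.15) on the lower. Electron carriers and import genes had 4 of 24 lower (16.7%) and 1 higher (4.17%), with a median of 0.06, and HSPA9 (-0.99), COQ9 (-0.90) and TOMM40 (-0.79) were lower. Among regulators of mitochondrial biogenesis 4 of 18 were lower and 0 higher, with a median of -0.20. PPARGC1B had -1.06 ± 0.13, PPRC1 -1.05 ± 0.14 and PPARA -0.58 ± 0.14.

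Hypoxia and glycolysis genes had a median of the opposite sign. In the 4-pair test 14 of 30 were higher and 1 lower, with a median of 0.87. NDRG1 had 3.67 ± 0.35 (edgeR adjusted p = 0.00968), CA9 7.67 ± 0.89 (edgeR adjusted p = 0.0098) and HIGD1A 0.81 ± 0.12 (edgeR adjusted p = 0.0125). Within LS174T 21 were higher and 1 lower, where 23.4% of all genes were higher and 22.5% lower. Within KM12 15 were higher and 4 lower, where 14.3% of all genes were higher and 15.5% lower. The difference between lines was called for 13 genes, all larger in LS174T, where 7.74% of all genes were called in that direction. Its median was -0.87. ADM differed by -3.60 ± 0.29 and ALDOC by -2.04 ± 0.21. CA9 had 10.3 CPM in knockout and 3.61 CPM in parental KM12 xenografts, against 0.0586 CPM and 0.275 CPM in the knockout and parental cultures. The LS174T values were 229 CPM in the Dox (+) and 234 CPM in the Dox (-) xenograft, against 0.729 CPM and 0.491 CPM in the Dox (+) and Dox (-) cultures. CA9 was thus higher in xenografts of both lines, whereas NDUFA4L2 was higher in those of LS174T and lower in those of KM12.

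Cytosolic ribosomal protein genes, measured as a set outside the mitochondrion, had 2 of 82 higher and 3 lower in the 4-pair test, with a median of -0.05. Within lines they had 38 lower and 3 higher in KM12 (median -0.42), and 5 lower and 37 higher in LS174T (median 0.32). Of all genes, 15.5% were lower and 14.3% higher in KM12, and 22.5% were lower and 23.4% higher in LS174T. The difference between lines was called negative for 56 of 82 and positive for 2, where 7.74% and 5.94% of all genes were, and its median was -0.84.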

How the data were processed

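The values are raw counts of reads for each human gene, deposited as a single table, which the authors made with STAR 2.7.2b and HTSeq 0.11.0 against hg38, with GRCm39 also listed, per the submitters' processing notes. The labels' protocols describe oligo(dT) capture and random hexamer priming. Gene symbols were taken from GENCODE v29 and 93.1% of the 60483 genes were named. The members and the other lists were chosen with earlier results of these data known. Genes with a CPM of at least 1 in 2 libraries, by library totals before TMM factors, were tested with edgeR 4.0.16 in R 4.3.3 (TMM factors, quasi-likelihood F test, Benjamini-Hochberg adjustment over all 16070 genes). The 3 main effects were fitted with the 4 matched pairs as a block, and effects within lines in a model with 2 residual degrees of freedom. Groups are single libraries, so intervals (exact binomial, 95%) and the floor of 3 counts cover counting error only. SE was obtained by dividing each log2 difference by the root of its F statistic. Log2 differences of single pairs used a prior count of 2. The text names all members of complex II, CYC1, ATP5IF1, the isoform sets, up to 8 called members per direction with the same sign in all 4 pairs, else the 4 of smallest p, and 3 per direction for interactions. DESeq2 1.42.0 and limma 3.58.1 were alternatives. The fitting was checked on simulated data. Exon lengths and overlaps used GENCODE v29, and promoters RefSeq (GRCh38.p14). Values of 1 member, which counts toward the totals, are not reported here.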

Additional observations from a re-analysis of the deposited data

Results flagged for a closer look

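The environment difference (xenograft minus culture) differed between the lines for 17 members by the interaction test, coded as KM12 minus LS174T on the log2 scale. NDUFA4L2 stood far from the rest at -11.88, with counts that were high in LS174T xenografts and low in LS174T cultures. COX7A2L (-0.96) and ATP5MC2 (-0.90) were the other 2 members with a negative difference. In complex V, ATP5PF had 1.47, ATP5PO 1.21, ATP5MC3 0.93 and ATP5F1B 0.83. In complex I, NDUFB3 had 1.22, NDUFB2 1.13, NDUFB10 1.01, NDUFS3 0.98, NDUFA1 0.89 and NDUFV1 0.79. In complex III, UQCRC1 had 0.98 and UQCRQ 0.82. In complex IV, NDUFA4 had 1.10 and COX7B 0.88. These values rest on 2 pairs per line. Groups of 1 library allowed no test of single outlying samples.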

How the results depend on the processing

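Of the values of named members under other settings, 435 kept their direction and their side of the threshold. A further 64 kept the direction and lost the call, 5 (all NDUFC2, environment) gained it, and none turned round. Members named for environment, line and GNAS were chosen with the same sign in every pair, so leaving out a pair did not test their direction. Those named for GNAS and for GNAS by line had no call to lose. For the environment test, library totals gave 11 higher and 11 lower with a median of 0.0017, no filter gave 0 higher and a median of -0.60 relative to all genes, a CPM minimum of 5 gave 8 higher and 14 lower, DESeq2 gave 8 higher, limma-voom 5 higher, and an additive design with no replicate block 8 higher. The labels give no replicate numbers, and the pairs come from line, setting and GNAS state. Within-line alternatives were chosen after seeing the data. Within KM12, totals gave 26 higher, 8 lower and a median of 0.21, no filter 26 lower and an exon length offset 27 lower. Within LS174T, totals gave 12 higher and a median of -0.18, and a CPM minimum of 5 gave 3 higher. Counting NDUFA4 in complex I left complex IV with 1 positive difference between lines.

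Leaving out 1 pair at a time gave, for environment, 0 higher in each case, 0 to 17 lower and medians of -0.29 to -0.20 (-0.32 to -0.21 relative to all genes). Within KM12 it gave 5 to 6 higher, 13 to 15 lower and medians of -0.11 to -0.07. Within LS174T it gave 1 to 3 higher, 11 to 45 lower and medians of -0.59 to -0.32 (-0.59 to -0.34 relative to all genes). For the line comparison it gave 2 to 4 higher, 8 to 13 lower and medians of -0.16 to -0.04 (-0.17 to -0.02 relative to all genes). For GNAS it gave 0 calls and medians of 0.05 to 0.14 (0.04 to 0.13 relative to all genes). For environment by line it gave 0 to 17 higher, 1 to 3 lower and medians of 0.33 to 0.58 (0.33 to 0.57 relative to all genes), and for GNAS by line 0 calls and medians of -0.14 to 0.11 (-0.13 to 0.12 relative to all genes). The cause of these shifts was not tested, beyond the fewer degrees of freedom of fits without a pair. Depth limits members with few counts, such as NDUFA4L2 in LS174T cultures.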
